A study of Homo sapiens with 6 samples.

Results

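The mRNA levels of 32 genes of cholesterol and fatty acid synthesis were compared between oxaliplatin-treated and untreated HCT116 cells. The genes were chosen by symbol among the 27942 genes of the deposited table, and each of the 32 symbols matched 1 row. They fell into 6 genes of the mevalonate steps, 11 of the squalene and sterol steps, 6 that control the pathway and 9 of fatty acid synthesis. RNA was sequenced from 3 untreated libraries (NT) and from 3 libraries of cells that had received 0.5 µM oxaliplatin, a platinum drug that crosslinks DNA, over 24 h (OXA). HCT116 is 1 established line of human colorectal carcinoma cells with wild-type p53 and mutated CTNNB1, and both groups were grown in RPMI medium with bovine serum. The labels number the replicates of each group without saying whether they were separate cultures, so the p-values measure the spread between these libraries, which may be technical.

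Cells make cholesterol from acetyl-CoA through mevalonate, farnesyl diphosphate and squalene, and fatty acids through malonyl-CoA and palmitate. The SREBP transcription factors, encoded by SREBF1 and SREBF2, switch on most genes of both routes. When sterols are scarce, SCAP carries these factors from the endoplasmic reticulum to the Golgi, where they are cut and released, and when sterols are plentiful, INSIG1 and INSIG2 hold SCAP back. Tumour cells of the colon are known to draw on both routes for membranes.

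Each library held between 32979521 and 40967880 raw counts, and all 32 genes passed the filter on low counts, as did 13727 genes in all. Normalized counts are raw counts scaled with 1 TMM factor per library, and log2FC is the log2 fold change of OXA over NT with its standard error. CDKN1A, a p53 target taken as a check of treatment, had 4235, 5143 and 6049.6 normalized counts in NT libraries 1 to 3 and 40181, 41316 and 35832 in OXA libraries 1 to 3 (log2FC 2.93 ± 0.15, adjusted p = 0.000445 by edgeR). EPCAM, an epithelial marker, had 9963 ± 1012 normalized counts in the NT group and 9689 ± 802 in the OXA group (SD, n = 3), whereas the intestinal markers KRT20 and VIL1 were low, with NT means of 46.1 and 79.2. Over the 8 epithelial markers the summed level lay between 72274 and 97601 normalized counts in NT and between 104277 and 116862 in OXA. The 12 markers of blood, vessel, stromal, liver, fat and steroidogenic cells summed to between 142 and 319 normalized counts in NT and between 209 and 309 in OXA, and 2 of the 12, VWF and COL1A1, passed the filter. DCN, APOA1 and ADIPOQ had no count in any library. Of the epithelial markers 1 was called, ELF3, which rose (log2FC 1.12 ± 0.19, adjusted p = 0.0210 by edgeR), where 2.78% of all genes tested were called higher. With libraries of the same number paired, 3 of the 8 were higher (ELF3, KRT8 and KRT18, where 12.1% of all genes were) and 1 lower (CDH1, where 10.9% were), and the part of these markers in the results below was not tested.

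None of the 32 genes passed edgeR's quasi-likelihood test of OXA against NT (adjusted p-value below 0.05), whereas 5.07% of all genes tested passed. Their log2 fold changes lay between -0.63 for INSIG1 and 0.33 for TM7SF2, with a median of -0.020, against 0.023 over all genes tested. The estimate was below 0 in 18 of the 32 genes (56.2%), where it was below 0 in 46.7% of all genes tested. Before adjustment, 7 genes had a p-value below 0.05 with a lower level in OXA, and 0 with a higher one. These 7 were HMGCS1, IDI1, EBP, INSIG1, SCD, ELOVL6 and FADS1, which is 21.9% of the 32, where 11.1% of all genes tested were lower by this rule. By DESeq2, 1 of the 32 passed, INSIG1 (adjusted p = 0.0180, background 9.26%, of which 4.63% in each direction), and by limma-voom 0 did (background 4.84%, with 2.73% higher and 2.11% lower). In bulk RNA, fewer cells that express a gene and less of its RNA per cell cannot be told apart.

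Libraries that carry the same number in NT and OXA moved together around the means of their groups, so a fit blocked by replicate number is given wherever it changes a call. With this block, 6 of the 32 genes passed as lower in OXA and 0 as higher by edgeR (adjusted p below 0.05). The 6 were IDI1, EBP, INSIG1, SCD, ELOVL6 and FADS1. They make up 18.8% of the 32 genes, where the block called 10.9% of all genes tested as lower and 12.1% as higher. All OXA libraries lay below all NT libraries in 6 genes (18.8%, background 14.4%) and above them in 3 (9.38%, background 14.5%). Within the same-numbered pairs, 9 genes were lower in OXA in all 3 pairs (28.1%, background 27.6%) and 6 were higher in all 3 (18.8%, background 33.8%). The share lower in every pair was near that of all genes tested.

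**Figure D1:**
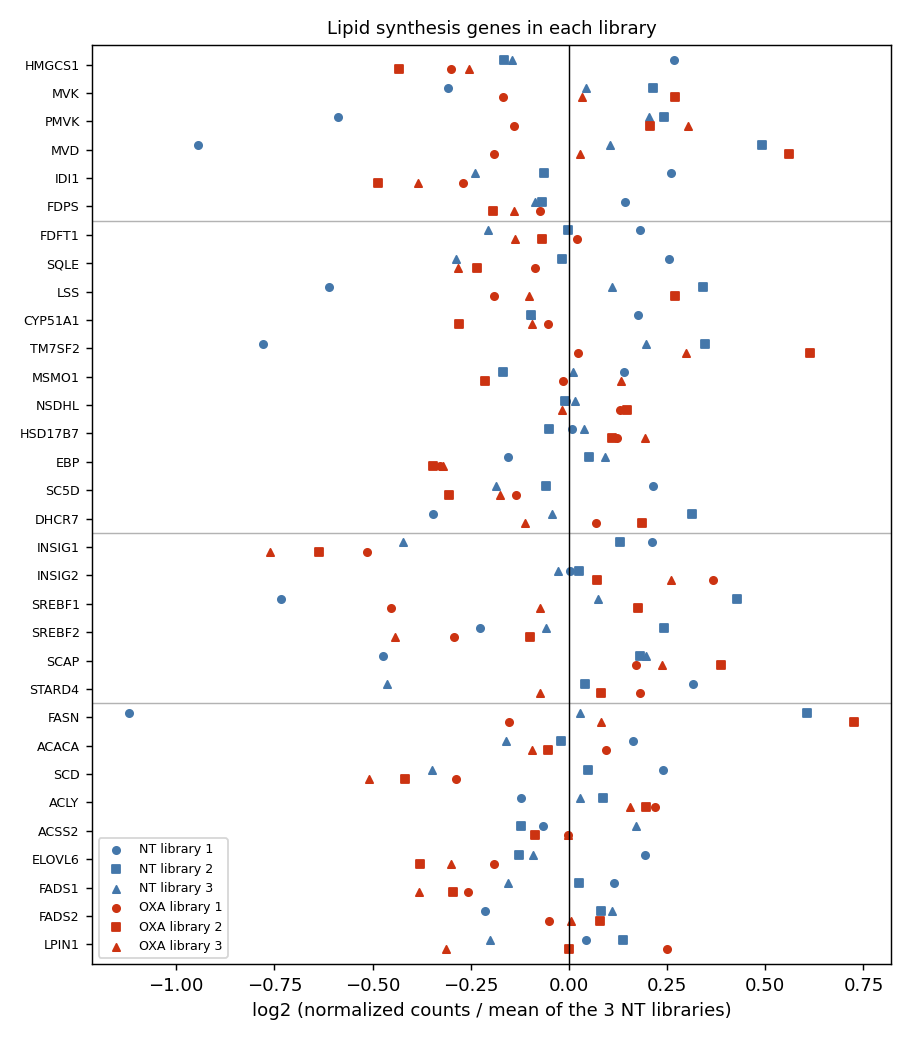
Normalized counts of the 32 genes (rows, grouped by role) in each library, on the x axis as log2 of the value over the mean of the 3 NT libraries, with NT in blue, OXA in red and marker shapes for the library number. INSIG1, EBP, IDI1, ELOVL6, FADS1 and HMGCS1 had all 3 OXA libraries to the left of all 3 NT libraries, and NT library 1 lay far to the left for FASN, MVD, TM7SF2 and SREBF1.

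The departure of NT library 1 from the other NT libraries followed the GC content of the transcripts. FASN, at 65.3% GC, had 5123, 16955 and 11356 normalized counts in NT libraries 1 to 3 and 10023, 18440.5 and 11795 in OXA libraries 1 to 3. NT library 1 was the lowest of the NT libraries by far, and the groups overlapped. Of the 12 genes with at least 55% GC, NT library 1 was the lowest NT library in 11, the exception being FDPS, and of the 8 genes under 42% GC it was the highest in 7, the exception being INSIG2. Across the 32 genes, Pearson's r between GC content and the log2 ratio of NT library 1 to the mean of NT libraries 2 and 3 was -0.87 (Spearman's rho -0.89), and across 13675 tested genes it was -0.68. For OXA library 1 over the mean of OXA libraries 2 and 3, r was -0.78 across the 32 genes (Spearman's rho -0.81) and -0.40 across the tested genes. These are correlations across genes, which share their libraries and are not independent. Over all tested genes, the fitted trend of a library on GC content, in log2 units per 10 percentage points, was -0.35, 0.14 and 0.044 in NT libraries 1 to 3 and -0.054, 0.20 and 0.029 in OXA libraries 1 to 3. The trend was lower in NT than in OXA for libraries 1 and 2 and higher for libraries 3.

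**Figure D2:**
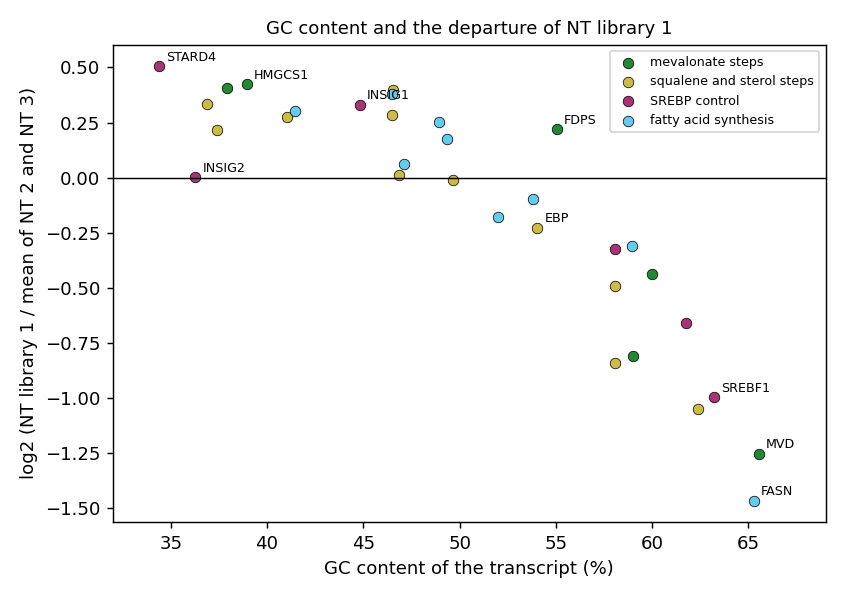
Each point is 1 of the 32 genes, with the GC content of its canonical transcript (%) on the x axis and log2 of NT library 1 over the mean of NT libraries 2 and 3 on the y axis, coloured by role. Genes of low GC content lie above 0 and most genes above 55% lie below, with FASN lowest at -1.47 and STARD4 highest at 0.51.

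The log2 fold changes of the 32 genes also moved with GC content, with r = 0.42 without the block and 0.46 with it. When each library's linear trends with GC content and with length of the transcript were taken out as well as the block, 11 of the 32 genes were lower (34.4%, background 21.0%) and 5 higher (15.6%, background 22.0%), where 43.0% of all genes tested were called in either direction. The median was -0.081, against 0.0012 over all genes tested. All 6 genes called with the block alone were among the 11 and were lower in both fits. The others called lower were HMGCS1, FDPS, SQLE, SREBF1 and SREBF2, and the 5 called higher were INSIG2, SCAP, STARD4, FASN and ACLY. With these trends removed and no block, a setting chosen after the data had been seen, 4 genes were lower (IDI1, EBP, INSIG1 and SREBF2, background 8.08%) and 0 higher (background 8.32%, and 16.4% in either direction).

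**Figure D3:**
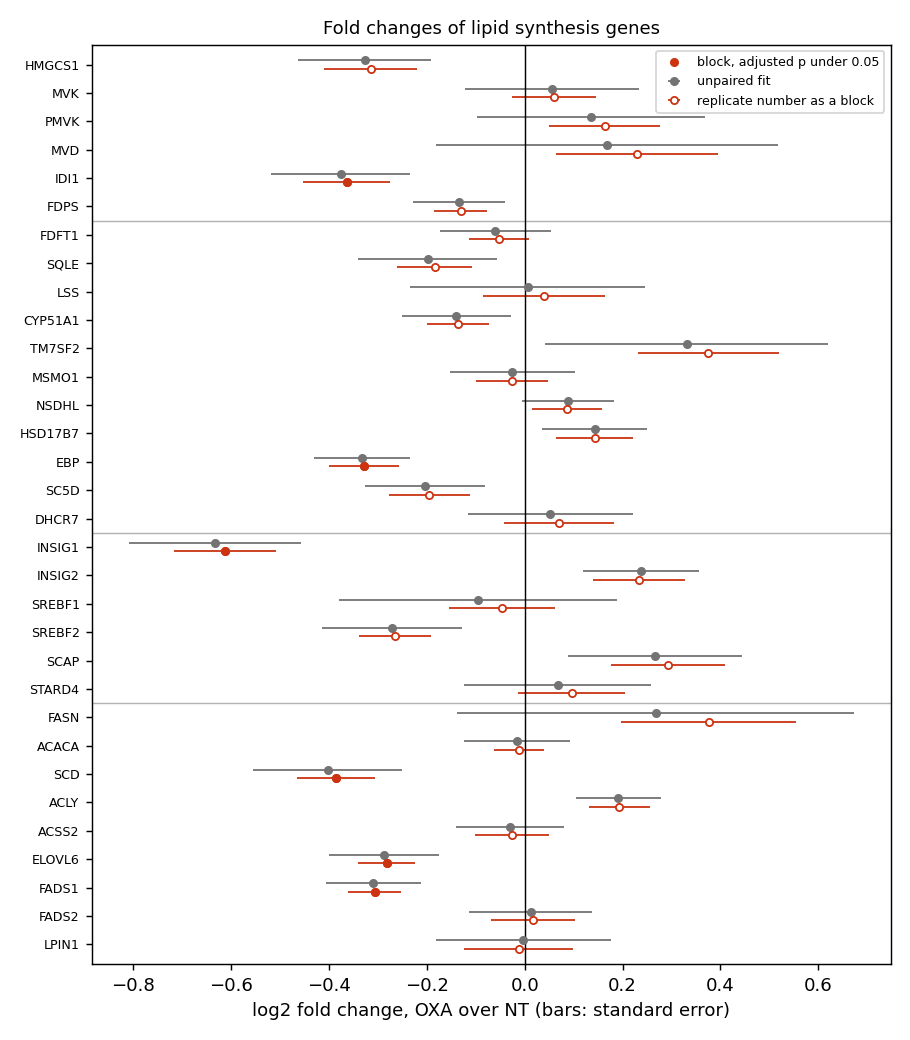
Log2 fold change of OXA over NT for each of the 32 genes (x axis, bars are standard errors) from the unpaired fit in grey and from the blocked fit in red, with filled red points where the adjusted p by edgeR was below 0.05. The 6 filled points lie between -0.61 for INSIG1 and -0.28 for ELOVL6.

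Promoter windows from RefSeq (GRCh38.p14, 250 bases before to 50 after a start) were found for 29 of the 32 genes. FDFT1, SQLE and FASN had no window and were not searched. For the others 1 window per gene, the one nearest the start of its canonical transcript, was searched on both strands. TCACNCCAC, a form of the sterol regulatory element, was found in 1 of the 29, SREBF2, and in 1.01% of the windows of 10396 tested genes. Elements of other spelling or outside the windows were not searched for, so a gene without this string may hold one. CCAAT, the box bound by NF-Y, a partner of SREBP, was found in 19 of 29 (65.5%), against 36.6% of the windows of tested genes. GGGCGG, a GC box, was found in 28 of 29 (96.6%, against 74.0%), and the E-box CACGTG in 4 of 29 (13.8%, against 10.0%). A match is a string of letters and does not show binding, and none of these shares was tested. Of the 6 genes called with the block, IDI1, EBP, INSIG1 and SCD held CCAAT, and ELOVL6 and FADS1 did not. The upstream stretches of these 4 genes are shown because they passed the blocked fit and held a CCAAT box, and that of SREBF2, which passed neither that fit nor the unpaired one, because it held the sterol regulatory element. Each runs 5′ to 3′ on the strand of its gene, ends before the first exon of a protein-coding gene, and carries CCAAT or its complement ATTGG in capitals, and in SREBF2 the sterol regulatory element.
INSIG1: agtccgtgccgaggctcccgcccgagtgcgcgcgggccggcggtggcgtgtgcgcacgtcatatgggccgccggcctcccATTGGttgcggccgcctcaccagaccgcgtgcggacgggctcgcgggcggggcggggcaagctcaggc
IDI1: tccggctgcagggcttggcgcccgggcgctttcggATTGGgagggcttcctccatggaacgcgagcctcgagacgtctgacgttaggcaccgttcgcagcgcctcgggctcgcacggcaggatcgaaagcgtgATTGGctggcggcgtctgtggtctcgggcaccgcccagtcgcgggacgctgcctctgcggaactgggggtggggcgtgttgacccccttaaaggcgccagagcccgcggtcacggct
EBP: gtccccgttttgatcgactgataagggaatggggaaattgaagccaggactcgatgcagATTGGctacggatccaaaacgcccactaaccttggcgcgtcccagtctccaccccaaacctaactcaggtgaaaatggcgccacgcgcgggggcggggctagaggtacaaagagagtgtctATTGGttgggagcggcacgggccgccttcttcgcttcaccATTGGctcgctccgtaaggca
SCD: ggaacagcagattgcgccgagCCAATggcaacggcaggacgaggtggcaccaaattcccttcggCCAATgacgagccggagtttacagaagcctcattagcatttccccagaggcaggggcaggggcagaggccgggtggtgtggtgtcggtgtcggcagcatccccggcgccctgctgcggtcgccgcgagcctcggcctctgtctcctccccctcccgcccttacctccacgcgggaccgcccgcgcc
SREBF2: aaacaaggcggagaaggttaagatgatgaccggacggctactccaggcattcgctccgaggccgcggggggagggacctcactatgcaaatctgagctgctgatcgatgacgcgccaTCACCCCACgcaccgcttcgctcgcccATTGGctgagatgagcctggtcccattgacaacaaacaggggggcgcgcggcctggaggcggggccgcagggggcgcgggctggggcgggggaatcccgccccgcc

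The stretches come from GRCh38.p14 chr7:155297628-155297775, plus strand (INSIG1), GRCh38.p14 chr10:1049120-1049369, minus strand (IDI1), GRCh38.p14 chrX:48521558-48521798, plus strand (EBP), GRCh38.p14 chr10:100346983-100347232, plus strand (SCD) and GRCh38.p14 chr22:41832855-41833104, plus strand (SREBF2). Distances are counted from the RefSeq start of each window, which is 155297878 in INSIG1 and 48521808 in EBP, both downstream of the start of the gene given with its values. The other 3 stretches end at the base before the RefSeq start. In SREBF2 the sterol regulatory element began 133 bases before the start and ATTGG 106 bases before it, in a window that also overlaps an exon of SREBF2-AS1 on the opposite strand. EBP held 3 such boxes, which began 191, 70 and 30 bases before its RefSeq start. IDI1 and SCD held 2 each and INSIG1 1, 170 bases before its RefSeq start.

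Among the genes that control the pathway, INSIG1 had the largest absolute log2 fold change of the 32. INSIG1 (ENSG00000186480, chromosome 7 of GRCh38 from 155297776 to 155310235, plus strand) encodes an anchor of SCAP in the endoplasmic reticulum, is itself a target of SREBP, and held 1 CCAAT box in its window. INSIG1 had 1266, 1196 and 815 normalized counts in NT libraries 1 to 3 and 765, 703 and 644 in OXA libraries 1 to 3. Every OXA library lay below every NT library, with NT library 3 nearest to the OXA libraries. In the unpaired fit the difference did not pass (log2FC -0.63 ± 0.18, adjusted p = 0.0851 by edgeR), and with the block it did (log2FC -0.61 ± 0.10, adjusted p = 0.0142 by edgeR). Without NT library 3 it also passed in the unpaired fit (log2FC -0.84, adjusted p = 0.0416 by edgeR), and over the 6 fits that each left out 1 library its adjusted p by edgeR ran up to 0.251. INSIG2, a second anchor that is not under the same sterol control, had 554, 563 and 543 normalized counts in NT libraries 1 to 3 and 714, 581 and 663 in OXA libraries 1 to 3. All OXA libraries were above all NT libraries, with OXA library 2 close to them (log2FC 0.24 ± 0.12, adjusted p = 0.295 by edgeR). The block gave no call for INSIG2 (log2FC 0.23 ± 0.094, adjusted p = 0.125 by edgeR), whereas with GC content and length removed as well it was higher (log2FC 0.35, adjusted p = 0.0140 by edgeR). Whether INSIG1 and INSIG2 differed from each other in their response was not tested.

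SREBF2, the SREBP gene that mainly drives cholesterol genes, had 5350.4, 7405 and 6010.4 normalized counts in NT libraries 1 to 3 and 5105, 5843 and 4606 in OXA libraries 1 to 3. OXA libraries were lower than their same-numbered NT libraries in all 3 pairs, by log2 ratios of -0.068, -0.34 and -0.38, but OXA library 2 lay between NT libraries 1 and 3. SREBF2 passed neither without the block (log2FC -0.27 ± 0.14, adjusted p = 0.327 by edgeR) nor with it (log2FC -0.27 ± 0.074, adjusted p = 0.0515 by edgeR). SREBF2 was lower when GC content and length were removed with the block (log2FC -0.38, adjusted p = 9.68e-05 by edgeR). SREBF1, which mainly drives fatty acid genes, had 1299, 2909.9 and 2274 normalized counts in NT libraries 1 to 3 and 1578, 2440.1 and 2055 in OXA libraries 1 to 3. Library 1 was the lowest in both groups, and the groups overlapped (log2FC -0.094 ± 0.28, adjusted p = 0.886 by edgeR). With the block and the GC and length trends removed SREBF1 was lower (log2FC -0.22, adjusted p = 0.00748 by edgeR), and without NT library 2 its sign turned in the unpaired fit (log2FC 0.15, adjusted p = 0.774 by edgeR). SCAP, the escort of the SREBP proteins, had 2313 ± 559.5 normalized counts in the NT group and 2784 ± 216 in the OXA group (SD, n = 3; log2FC 0.27 ± 0.18, adjusted p = 0.441 by edgeR). STARD4, a carrier of cholesterol between membranes, had 1149 ± 299.9 normalized counts in the NT group and 1204 ± 106 in the OXA group (log2FC 0.067 ± 0.19, adjusted p = 0.879 by edgeR), and without NT library 3 its estimate turned to -0.15. SCAP and STARD4 were called higher in the fit with the block and both trends removed, at log2FC 0.13 and 0.24 (adjusted p = 0.0336 and 0.00852 by edgeR).

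Of the 6 mevalonate genes, IDI1 was the 1 called with the block, as lower (16.7% of the 6, background 10.9%). None of the 6 was called higher with the block (background 12.1%). HMGCS1, the synthase that makes HMG-CoA, had 2879, 2130.4 and 2161 normalized counts in NT libraries 1 to 3 and 1942, 1771 and 2003 in OXA libraries 1 to 3. NT library 1 stood above all other libraries, and the OXA libraries were the lowest 3 (log2FC -0.33 ± 0.14, adjusted p = 0.214 by edgeR). The block left HMGCS1 without a call (log2FC -0.31 ± 0.094, adjusted p = 0.0621 by edgeR), and the removal of GC and length trends with the block gave one (log2FC -0.21, adjusted p = 0.0132 by edgeR). IDI1 (ENSG00000067064, chromosome 10 of GRCh38 from 1039152 to 1049119, minus strand), the isomerase of isopentenyl diphosphate, had 2098, 1677 and 1485 normalized counts in NT libraries 1 to 3 and 1455, 1253 and 1345 in OXA libraries 1 to 3. All OXA libraries were below all NT libraries, with OXA library 1 close to NT library 3. The unpaired fit gave no call (log2FC -0.38 ± 0.14, adjusted p = 0.177 by edgeR), and the block gave one (log2FC -0.36 ± 0.088, adjusted p = 0.0359 by edgeR). IDI1 transcripts have 37.9% GC and those of HMGCS1 39.0%.

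FDPS, which makes farnesyl diphosphate, had 5514, 4762 and 4701 normalized counts in NT libraries 1 to 3 and 4747, 4369 and 4533 in OXA libraries 1 to 3, with NT library 1 highest and the groups overlapping (log2FC -0.13 ± 0.094, adjusted p = 0.467 by edgeR). With the block and both trends removed FDPS was called lower (log2FC -0.28, adjusted p = 0.0148 by edgeR). The kinases MVK and PMVK and the decarboxylase MVD, at 59.0 to 65.5% GC, had positive estimates with wide errors. MVD ranged from 296 to 801 normalized counts among the NT libraries alone (log2FC 0.17 ± 0.35, adjusted p = 0.828 by edgeR). For MVK the estimate was 0.057 (standard error 0.18) and for PMVK 0.14 (standard error 0.23). All of MVK, PMVK and MVD turned to negative estimates without NT library 1, between -0.14 and -0.075, with no call.

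Of the 11 squalene and sterol genes, EBP was the 1 called with the block, as lower (9.09% of the 11, below the background of 10.9%). With the block, 0 of the 11 were higher (background 12.1%). EBP (ENSG00000147155, chromosome X of GRCh38 from 48521799 to 48528716, plus strand), the sterol isomerase that moves a double bond in the ring system, had 1699, 1959 and 2018 normalized counts in NT libraries 1 to 3 and 1506, 1488 and 1515 in OXA libraries 1 to 3. The OXA libraries were nearly equal, with an SD of 13.5, and lay below all NT libraries. Its difference did not pass in the unpaired fit (log2FC -0.33 ± 0.098, adjusted p = 0.10 by edgeR), passed with the block (log2FC -0.33 ± 0.072, adjusted p = 0.0268 by edgeR), and passed without NT library 1 in the unpaired fit (log2FC -0.40, adjusted p = 0.0261 by edgeR), while the other fits that left out 1 library gave an adjusted p by edgeR of 0.153 to 0.289. FDFT1, the squalene synthase, had 4499 ± 603 normalized counts in the NT group and 4316 ± 237 in the OXA group (SD, n = 3; log2FC -0.060 ± 0.11, adjusted p = 0.811 by edgeR). SQLE, which adds oxygen to squalene and is a rate-limiting step, had 3758, 3115 and 2582 normalized counts in NT libraries 1 to 3 and 2970.0, 2680.0 and 2592 in OXA libraries 1 to 3. The groups overlapped, since NT library 3 was as low as the OXA libraries (log2FC -0.20 ± 0.14, adjusted p = 0.476 by edgeR), and SQLE was called lower in the blocked fit with both trends removed (log2FC -0.20, adjusted p = 0.0345 by edgeR). LSS, which closes the rings to lanosterol, ranged more widely within NT, from 1028 to 1990.1, than its group means differed (log2FC 0.0061 ± 0.24, adjusted p = 0.993 by edgeR).

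Next on the route, the lanosterol demethylase CYP51A1 had 3961 ± 446 normalized counts in the NT group and 3595 ± 292 in the OXA group (log2FC -0.14 ± 0.11, adjusted p = 0.526 by edgeR). TM7SF2, a sterol reductase, had the largest positive estimate of the 32 genes with a large error, at 290.3, 634 and 570.4 normalized counts in NT libraries 1 to 3 and 506, 762 and 612 in OXA libraries 1 to 3 (log2FC 0.33 ± 0.29, adjusted p = 0.564 by edgeR). NT library 1 held the lowest level of all 6 libraries, and the groups overlapped. MSMO1, NSDHL and HSD17B7, which act together to remove methyl groups from the sterol ring, had estimates of -0.025, 0.089 and 0.14 (standard errors 0.13, 0.094 and 0.11). HSD17B7 had 502, 482 and 513 normalized counts in NT libraries 1 to 3 and 543, 539 and 571 in OXA libraries 1 to 3. Its OXA libraries all lay above its NT libraries without a call (log2FC 0.14 ± 0.11, adjusted p = 0.495 by edgeR). SC5D, a sterol desaturase, had 2118 ± 307 normalized counts in the NT group and 1839.8 ± 112 in the OXA group (log2FC -0.20 ± 0.12, adjusted p = 0.391 by edgeR). DHCR7, the reductase of the last ring double bond, had 2657 ± 609.8 normalized counts in the NT group and 2755 ± 282 in the OXA group (log2FC 0.052 ± 0.17, adjusted p = 0.893 by edgeR).

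Fatty acid synthesis held 3 of the 6 genes called with the block, SCD, ELOVL6 and FADS1 (33.3% of its 9 genes, background 10.9% lower). With GC and length trends removed and no block, SCD, ELOVL6 and FADS1 did not pass (adjusted p = 0.0966, 0.0692 and 0.0565 by edgeR). SCD (ENSG00000099194, chromosome 10 of GRCh38 from 100347233 to 100364826, plus strand), the desaturase that makes oleate, had 50521, 44211 and 33579 normalized counts in NT libraries 1 to 3 and 35029.8, 32033 and 30035 in OXA libraries 1 to 3. NT libraries 1 and 2 were the highest, and NT library 3 lay below OXA library 1. SCD did not pass in the unpaired fit (log2FC -0.40 ± 0.15, adjusted p = 0.177 by edgeR) and did with the block (log2FC -0.38 ± 0.080, adjusted p = 0.0239 by edgeR), with log2 ratios of -0.53, -0.46 and -0.16 in the 3 pairs. ELOVL6 (ENSG00000170522, chromosome 4 of GRCh38 from 110045846 to 110199199, minus strand), which lengthens palmitate, had 3186, 2551 and 2616 normalized counts in NT libraries 1 to 3 and 2439, 2142 and 2263 in OXA libraries 1 to 3. Every OXA library was below every NT library (log2FC -0.29 ± 0.11, adjusted p = 0.195 by edgeR), and the block gave a call (log2FC -0.28 ± 0.059, adjusted p = 0.0240 by edgeR). FADS1 (ENSG00000149485, chromosome 11 of GRCh38 from 61799627 to 61829318, minus strand), a desaturase of polyunsaturated fatty acids, had 3995, 3754 and 3312 normalized counts in NT libraries 1 to 3 and 3087, 3006 and 2831 in OXA libraries 1 to 3. Its groups did not overlap either (log2FC -0.31 ± 0.097, adjusted p = 0.115 by edgeR), and the block gave a call (log2FC -0.31 ± 0.054, adjusted p = 0.0155 by edgeR).

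**Figure D4:**
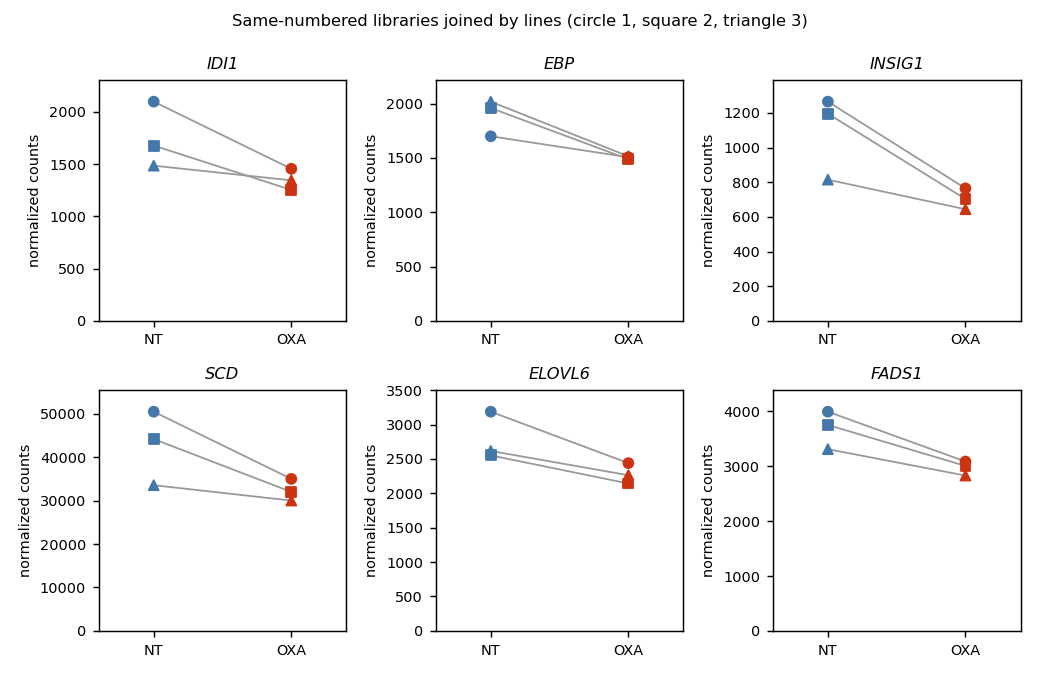
Normalized counts (y axis, from 0) of the 6 genes called with the block in NT and OXA, 1 panel per gene, with lines between libraries of the same number. All 18 lines slope down from NT to OXA, and the decrease was smallest for pair 3 in each gene but EBP, where it was smallest for pair 1.

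FADS2, the partner desaturase of FADS1 on the opposite strand of the same locus, had 562, 690.1 and 703 normalized counts in NT libraries 1 to 3 and 629.7, 688 and 654 in OXA libraries 1 to 3. The groups overlapped (log2FC 0.012 ± 0.12, adjusted p = 0.971 by edgeR). FADS1 and FADS2 share exon bases in GENCODE, as FADS2 does with FEN1, and the strand setting of the counting is not given in the sources used here, so how reads were divided between them is uncertain. In all, 17 of the 32 genes share exon bases with another annotated gene, 7 of them with a protein-coding gene, CYP51A1, EBP, TM7SF2 and SREBF1 among them. FASN, the fatty acid synthase, had the widest standard error of the 32 (log2FC 0.27 ± 0.41, adjusted p = 0.758 by edgeR), and its sign turned without NT library 1 (log2FC -0.077). ACLY, which makes cytosolic acetyl-CoA from citrate, had 14626, 16901 and 16249 normalized counts in NT libraries 1 to 3 and 18545, 18258 and 17751 in OXA libraries 1 to 3. All OXA libraries were above all NT libraries (log2FC 0.19 ± 0.087, adjusted p = 0.257 by edgeR), and the block left ACLY without a call (log2FC 0.19 ± 0.062, adjusted p = 0.0739 by edgeR). FASN and ACLY were called higher in the blocked fit with both trends removed, at log2FC 0.20 and 0.14 (adjusted p = 0.0195 and 0.0140 by edgeR). ACACA, the acetyl-CoA carboxylase, had 7878 ± 893 normalized counts in the NT group and 7792 ± 542 in the OXA group (SD, n = 3; log2FC -0.016 ± 0.11, adjusted p = 0.953 by edgeR). ACSS2, which makes acetyl-CoA from acetate, had 1245 ± 137 normalized counts in the NT group and 1219.8 ± 40.3 in the OXA group (log2FC -0.030 ± 0.11, adjusted p = 0.907 by edgeR). LPIN1, a phosphatidate phosphatase, had 367 ± 43.5 normalized counts in the NT group and 367 ± 70.7 in the OXA group (log2FC -0.0027 ± 0.18, adjusted p = 0.996 by edgeR).

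Other genes of the same routes were taken from lists made by pathway. Of 24 further sterol genes, 22 were tested and 0 were called without the block by edgeR, by DESeq2 or by limma-voom, where 5.07% of all genes were by edgeR. Before adjustment, 3 of the 22 had a p-value below 0.05 with a lower level (13.6%, near the background of 11.1%) and 0 with a higher one. With the block 2 were lower (9.09% of the 22, below the background of 10.9%) and 0 higher (background 12.1%). The 2 were LBR, a lamin receptor with sterol reductase activity, and TMEM97, a partner of the cholesterol transporter NPC1. TMEM97 had 3512, 2925 and 2982 normalized counts in NT libraries 1 to 3 and 2616, 2394 and 2413 in OXA libraries 1 to 3, with no overlap between groups (log2FC -0.34 ± 0.10, adjusted p = 0.0985 by edgeR), and the block gave a call (log2FC -0.34 ± 0.055, adjusted p = 0.0122 by edgeR). LBR had 8578, 7027 and 8141 normalized counts in NT libraries 1 to 3 and 6189, 5335 and 6996 in OXA libraries 1 to 3, with all OXA libraries below all NT libraries (log2FC -0.36 ± 0.13, adjusted p = 0.15 by edgeR), and was called with the block (log2FC -0.36 ± 0.063, adjusted p = 0.0153 by edgeR).

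Of 35 further fatty acid genes, 30 were tested, and 2 were higher and 2 lower without the block (background 2.78% higher and 2.29% lower), a median log2 fold change of -0.063. ACSL5, an acyl-CoA synthetase of the intestine, fell from 12191 ± 982 to 7454 ± 940.1 normalized counts (log2FC -0.71 ± 0.12, adjusted p = 0.0186 by edgeR). HACD3, a dehydratase of chain elongation, fell from 7341 ± 635 to 4813 ± 322 (log2FC -0.61 ± 0.098, adjusted p = 0.0178 by edgeR). ELOVL1, an elongase of very long chains, had 1912, 2044 and 2239.5 normalized counts in NT libraries 1 to 3 and 2853, 2989 and 2939 in OXA libraries 1 to 3 and rose (log2FC 0.50 ± 0.091, adjusted p = 0.0252 by edgeR). MLX, a transcription factor partner in sugar-driven lipid synthesis, rose from 3118 ± 53.7 to 4002 ± 120.4 (log2FC 0.36 ± 0.077, adjusted p = 0.0423 by edgeR). With the block 5 were higher (16.7% of the 30, background 12.1%) and 3 lower (10.0%, background 10.9%), so that the share lower was near that of all genes tested. They included FADS3, a relative of FADS1 and FADS2, at log2FC 0.79 ± 0.15, adjusted p = 0.0204 by edgeR, and ACSL3, an acyl-CoA synthetase of lipid droplets, at log2FC -0.44 ± 0.084, adjusted p = 0.0187 by edgeR. When each of the 6 libraries was left out in turn, ACSL5 and HACD3 passed in 2 of the 6 fits each, without NT library 1 or NT library 2, and ELOVL1 and MLX in 1 each, without NT library 1.

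Fatty acid oxidation, the opposing route in mitochondria and peroxisomes, had 24 listed genes, of which 23 were tested, with 0 higher and 2 lower without the block (background 2.78% higher and 2.29% lower). HADH, a dehydrogenase of the oxidation spiral, had 2035, 1760.5 and 1852 normalized counts in NT libraries 1 to 3 and 1166, 1065 and 1214 in OXA libraries 1 to 3 and fell (log2FC -0.71 ± 0.10, adjusted p = 0.0118 by edgeR). ACAA2, the thiolase of the same spiral, had 1574, 1300.1 and 1247 normalized counts in NT libraries 1 to 3 and 1024, 884 and 845 in OXA libraries 1 to 3 and fell (log2FC -0.58 ± 0.13, adjusted p = 0.0480 by edgeR). In both genes all OXA libraries were below all NT libraries. When single libraries were left out, HADH passed without NT library 1, NT library 2 or OXA library 3, and ACAA2 without NT library 1. With the block 4 were lower (17.4% of the 23, background 10.9%), the others being ACADM and PPARA. ACADM, a dehydrogenase of medium chains, was called at log2FC -0.32 ± 0.082, adjusted p = 0.0431 by edgeR, and PPARA, a nuclear receptor of fatty acids, at log2FC -0.28 ± 0.072, adjusted p = 0.0410 by edgeR.

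Levels were compared between genes per transcript length, in TPM, the raw count per base of the canonical transcript scaled to a fixed total per library. SCD was the highest of the 32 in both groups, at 524 ± 109 TPM in NT and 375 ± 27.0 in OXA (SD, n = 3). ACLY and FDPS followed, at 238 ± 14.2 and 226 ± 23.7 TPM in NT, and did not differ from each other beyond their spread. FDFT1 had 142 ± 20.5 and EBP 108 ± 8.43, whereas FASN, at 84.0 ± 43.8, spread over the levels of the genes on either side of it. LPIN1 was the lowest, at 4.32 ± 0.506 TPM, and INSIG2 and MVK were next, at 9.97 ± 0.198 and 10.5 ± 1.74. SREBF2 was higher per length than SREBF1, at 76.5 ± 11.8 against 28.2 ± 10.2 TPM, and INSIG1 higher than INSIG2, at 24.1 ± 5.48 TPM in NT and 14.7 ± 1.17 in OXA against 11.1 ± 1.14 for INSIG2 in OXA. Summed over the 32 genes, normalized counts came to 134246 ± 11636 in NT and 123606 ± 5939 in OXA, with overlapping groups. The 6 mevalonate genes summed to between 10049.5 and 11516 normalized counts in the NT libraries and between 9405 and 9593 in the OXA libraries, without overlap. Of these 6 genes, 3 had an estimate above 0. Sums of the other roles overlapped between groups. The squalene and sterol genes ran from 22164 to 24280 in NT and from 21747 to 22805 in OXA. The control genes ran from 11568 to 15877 in NT and from 11786 to 13807 in OXA. For fatty acid synthesis the ranges were 76583 to 94377 in NT and 74246 to 83702 in OXA. No test was made on these sums.

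**Figure D5:**
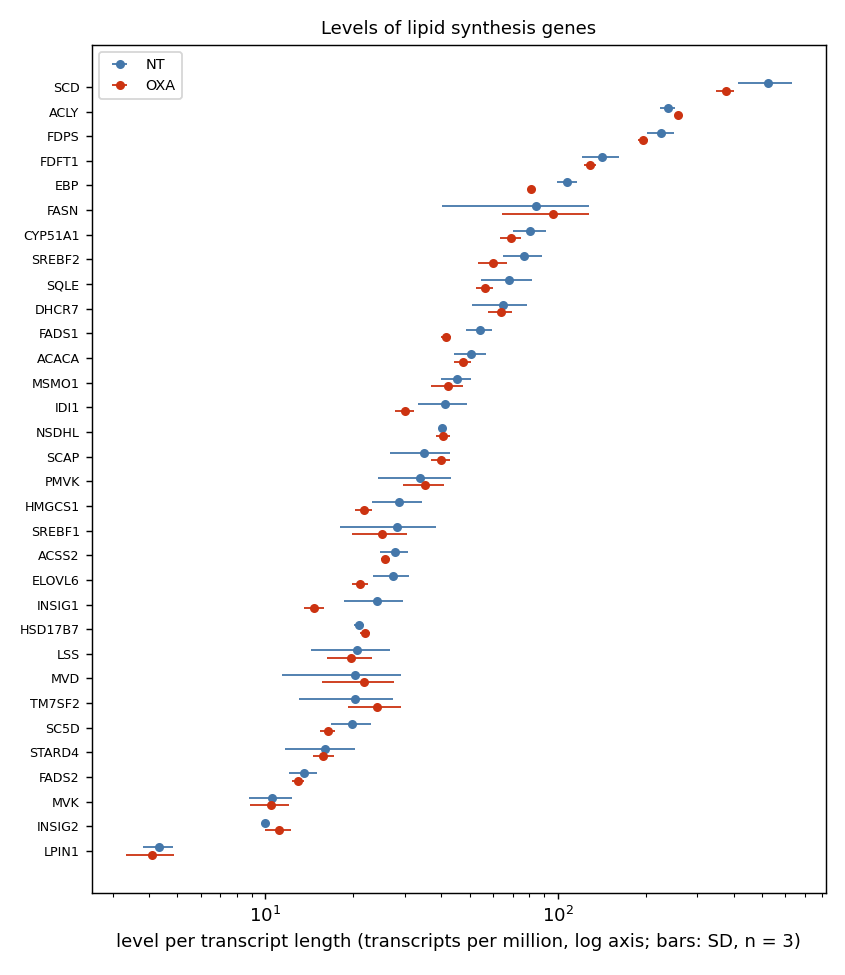
Level per transcript length of the 32 genes in TPM (x axis, log scale), with points for the means of NT in blue and OXA in red and bars for the SD (n = 3). SCD is at the top and LPIN1 at the bottom in both groups, and FASN, MVD and SREBF1 have wide bars in NT.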

How the data were processed

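RNA of HCT116 cells was sequenced on a NovaSeq instrument as read pairs. The submitters' processing notes name Trimmomatic 0.32, STAR 2.7.5b, RSEM 1.3.3 and DESeq2 2.13, with GRCh38 as the build, while the gene annotation and the strand setting of the counting are not given in the sources used here. The authors deposited raw counts per gene, as whole numbers, for each library. They also deposited a normalized signal per gene, the raw count times a factor that differs between genes and libraries, which served only as an alternative scaling. Totals ran from 32979521 to 40967880 counts.

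Genes were tested with edgeR 4.0.16 in R 4.3.3 (filterByExpr with a minimum count of 10 and a minimum total of 15, TMM factors, quasi-likelihood F-test, Benjamini-Hochberg adjustment over 13727 genes, calls below 0.05), with OXA against NT and no covariate. Standard errors are the absolute log2 fold change over the square root of F. Replicate numbers come from the labels. Over the genes tested, the deviations of same-numbered libraries from their group means correlated at 0.55, 0.54 and 0.31, and those of libraries with other numbers at -0.47 to 0.090, so that the numbers were taken to pair the libraries and a blocked fit is given. DESeq2 1.42.0, limma-voom (limma 3.58.1), other scalings and filters, a test against a 1.5-fold change, trends with GC content and length, and the omission of libraries were tried as alternatives. The fits were tested on simulated data.

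GC content and length are those of canonical transcripts of GENCODE on GRCh38, found for 99.6% of the genes tested, and TPM was computed from these lengths. Promoter sequences are from RefSeq (GRCh38.p14). All 32 genes are named, and from each other list up to 6 called genes with the largest fold changes. The members and lists were chosen with earlier results of these data known. Some sterol and lipid genes outside the 32 are not reported here.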

Additional observations from a re-analysis of the deposited data

How the results depend on the processing

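Without the block, 381 of all genes tested were called higher and 315 lower, and the counts called in the other sterol, other fatty acid and oxidation lists were 0, 4 and 2. The counts of the 32 genes called, 0 higher and 0 lower, stayed so with DESeq2's size factors in edgeR, the authors' factors, no filter, a mean of at least 50 counts, limma-voom and the test against a 1.5-fold change. With DESeq2 636 of all genes were called higher and 635 lower, and 1 of the 32 lower. With the authors' factors these were 241 and 200 over all genes, with 2 and 1 in the other fatty acid and oxidation lists. The oxidation list had 1 call with DESeq2's size factors and 1 with limma-voom. Against a 1.5-fold change, 41 and 9 of all genes and 0 and 0 of the last lists were called. With the replicate block, the counts were 1664 higher and 1493 lower over all genes, 6 lower of the 32, and 2, 8 and 5 in the 3 lists, and the block changed no other call among the 32 genes. With the block and the authors' factors they were 1318, 1167, 7 lower, and 2, 9 and 4, where SREBF2 joined the 6 genes. With the block and the GC and length trends removed they were 3016, 2887, 5 higher and 11 lower of the 32, and 9, 16 and 9. With these trends removed and no block, chosen after seeing the data, they were 1142, 1109, 4 lower, and 2, 8 and 4. Leaving out each library in turn, or both libraries 1, gave 66 to 623 higher and 19 to 571 lower over all genes, 0 to 1 lower of the 32, and 0 to 5 and 0 to 2 in the other fatty acid and oxidation lists. The highest counts over all genes came without NT library 1 and the lowest without OXA library 1. Leaving out NT library 2 or 3, OXA library 2 or 3, or both libraries 1 gave between 94 and 219 higher and between 32 and 165 lower, all under the counts with all libraries.

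Of the 32 estimates, 18 kept their sign under all alternatives run and 14 did not. The log2 fold changes that turned were, with the authors' factors, MVK -0.060, LPIN1 0.0039, FADS2 -0.058, LSS -0.078 and STARD4 -0.0093. With no filter they were FADS2 -0.015 and LSS -0.018. With GC and length trends removed and no block they were MSMO1 0.053, MVK -0.10, LPIN1 0.0059, FADS2 -0.14, LSS -0.080, PMVK -0.036, MVD -0.018 and DHCR7 -0.077, with the block as well MSMO1 0.053, MVK -0.097, FADS2 -0.13, LSS -0.079, PMVK -0.036, MVD -0.016, DHCR7 -0.078 and ACACA 0.0072, and with the block and the authors' factors MVK -0.048, FADS2 -0.059 and LSS -0.056. When libraries were left out, the signs that turned had ranges of MSMO1 -0.14 to 0.062, SREBF1 -0.36 to 0.15, FDFT1 -0.19 to 0.041, MVK -0.075 to 0.16, ACSS2 -0.12 to 0.032, LPIN1 -0.15 to 0.099, FADS2 -0.083 to 0.042, LSS -0.22 to 0.19, PMVK -0.086 to 0.26, STARD4 -0.15 to 0.26, MVD -0.14 to 0.47, FASN -0.077 to 0.68, DHCR7 -0.10 to 0.21 and ACACA -0.12 to 0.074. The cause was not tested.

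Depth did not limit which of the 32 genes could be tested, since all passed the filter. Each group held 3 libraries, and NT library 1 lay apart from the others along GC content. The widest standard errors in the unpaired fit were those of FASN, MVD, TM7SF2 and SREBF1 (0.41, 0.35, 0.29 and 0.28), all of high GC content. Not every gene of high GC content had a wide error. FDPS, FADS2 and SREBF2 had 0.094, 0.12 and 0.14, below the 0.19 of STARD4, a gene of low GC content. The cause of these errors was not tested. The removal of libraries was run without the block. The part of GC content in the differences between groups was not tested beyond these fits.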
